A study of Mus musculus with 8 samples.

Results

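Cathepsins are the proteases of the lysosome and cystatin C is a secreted inhibitor of one class of them. The genes described here are 8 cathepsin genes (Ctsa, Ctsb, Ctsc, Ctsd, Ctsh, Ctsk, Ctss and Ctsz) and Cst3, which encodes cystatin C. They were chosen by name as the rows of the deposited table that carry these 9 symbols, out of 37447 genes. All 9 were found, and 8 of them were among the 17753 genes tested, those with a mean of at least 1 FPKM (fragments scaled by transcript length and by the fragments mapped in the library). Ctsk lay below that level and is described without a test.

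The cells were microglia, the macrophages that reside in brain and optic nerve, flow sorted from optic nerves of C57BL/6 mice aged 3 months. FFC mice carried Nf1 flox/flox alleles with GFAP-Cre, so that Nf1 is lost in astrocytes, and FF mice carried the Nf1 flox/flox alleles alone. The floxed alleles were thus common to both genotypes, and Cre driven by the GFAP promoter was particular to FFC. There were 4 libraries of each genotype, 2 from females and 2 from males. The labels call them biological replicates, but do not say if animals were pooled for a library. The p-values measure the spread between these libraries.

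As background, most cathepsins are cysteine proteases of the papain type. Cathepsin D is an aspartic protease and cathepsin A a serine carboxypeptidase. They are made as inactive precursors, tagged with mannose 6-phosphate in the Golgi, carried to acidic compartments by receptors for that tag and activated there by cleavage. In macrophages, microglia included, they degrade engulfed protein and prepare peptides for antigen presentation. Cystatin C blocks the papain-type enzymes and does not block cathepsins A or D.

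The summed FPKM of a library lay between 367760 (FF 4) and 700291 (FF 1). FF 2 was also low, at 391924, and the next lowest was FFC 1 at 525184. Protein-coding genes made up 58.5% of the sum in FF 2, the lowest share, 70.0% in FF 4 and 90.4% in FFC 4, the highest. Depth is unknown because the table holds no read counts. Spearman correlations between pairs of libraries lay between 0.375 and 0.659, and FF 2 and FF 4 had the lowest medians with the other libraries, 0.398 and 0.464. All 12 microglia markers were detected in every library, with summed levels of 3281 to 6335 FPKM in FFC and 1778 to 5128 FPKM in FF. Gfap, the defining marker of astrocytes, was listed at 0.0778 to 0.31 FPKM in FFC and 0 to 1.03 FPKM in FF. Slc1a3, another marker of the astrocyte list, had 85.8 to 182 FPKM in FFC and 49.7 to 192 FPKM in FF. No other marker of that list exceeded 24.1 FPKM in any library. Nf1 had 47.7 to 98.3 FPKM in FFC microglia and 25.5 to 65.2 FPKM in FF microglia, which checks no label, since Cre was directed at astrocytes.

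The windows of 250 bases before the gene start are shown for 4 of the 9 genes, Ctsd and Ctsa because they hold an E-box, and the neighbours Ctss and Ctsk because these genes lie next to each other and differ widely in level. The sequences are those of RefSeq on GRCm38.p6, written 5′ to 3′ on the strand of the gene and ending at the base before its start. Capitals mark CACGTG, the E-box core that factors of the TFEB family are known to bind, or a pair of GAAA repeats with any 2 bases between them, the kind bound by interferon regulatory factors. Ctsd is on the minus strand at chr7:142387828-142388077, the second of 2 Ctsa windows is on the plus strand at chr2:164833523-164833772, and Ctss (chr3:95526536-95526785) and Ctsk (chr3:95498960-95499209) are on the plus strand.
Ctsd: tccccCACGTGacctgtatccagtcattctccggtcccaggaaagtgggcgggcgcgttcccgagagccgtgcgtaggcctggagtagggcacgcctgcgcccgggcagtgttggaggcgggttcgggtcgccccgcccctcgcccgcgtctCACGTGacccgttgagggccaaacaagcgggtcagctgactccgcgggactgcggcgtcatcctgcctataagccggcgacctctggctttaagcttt
Ctsa: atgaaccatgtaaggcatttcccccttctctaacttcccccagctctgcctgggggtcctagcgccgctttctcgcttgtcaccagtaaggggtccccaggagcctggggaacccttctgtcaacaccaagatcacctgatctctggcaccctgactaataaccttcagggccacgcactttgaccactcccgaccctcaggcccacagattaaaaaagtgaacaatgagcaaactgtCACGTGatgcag
Ctss: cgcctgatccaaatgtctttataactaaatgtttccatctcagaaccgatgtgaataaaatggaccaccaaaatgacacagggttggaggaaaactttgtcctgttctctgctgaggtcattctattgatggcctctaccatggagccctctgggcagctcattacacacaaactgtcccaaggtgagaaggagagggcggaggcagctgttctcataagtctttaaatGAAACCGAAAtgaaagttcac
Ctsk: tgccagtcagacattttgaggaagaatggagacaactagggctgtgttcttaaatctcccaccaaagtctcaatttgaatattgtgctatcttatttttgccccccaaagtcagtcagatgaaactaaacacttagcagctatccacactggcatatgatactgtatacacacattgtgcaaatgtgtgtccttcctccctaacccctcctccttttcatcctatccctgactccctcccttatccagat

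RefSeq windows were matched by symbol for 7 of the 9 genes, 8 windows in all, and Ctsb and Ctsh had no entry. CACGTG, which reads the same on both strands, was found at bases -245 to -240 and -98 to -93 of Ctsd, counted back from the start. In Ctsa it was at -12 to -7 of the second window and absent from the first. CACGTG was held by 2 of the 8 windows, against 6.02% of all 32817 mouse windows of that length. Both of these genes also matched TCACGTG, which overlaps CACGTG and was held by 3.13% of all windows. The longer form with GT before CACGTG and AC after it was in 0 of the 8 windows and in 0.241% of all. The pair of GAAA repeats, searched on both strands, was at bases -21 to -12 of Ctss and in 2.97% of all windows. The PU.1-type sequence GAGGAAGT, also searched on both strands, was at bases -151 to -144 of Ctsc and in 2.44% of all windows. Matches of letters are a description of the windows, and binding was not measured.

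The 9 genes together made up 1.57% to 1.96% of the summed FPKM of an FFC library and 0.816% to 1.79% of that of an FF library. Cst3 was the highest of them in 8 of 8 libraries, and its rank among all genes of a library lay between 6 and 38. Below it came Ctss, with ranks of 22 to 71, and Ctsa, with ranks of 28 to 84. Ranks were lower for Ctsb, at 167 to 1513, and for Ctsz, at 248 to 816. Ctss and Ctsa did not keep a fixed order, Ctsa being above Ctss in 4 of 8 libraries. Ctsd exceeded Ctsh in 7 of 8 libraries, Ctsc exceeded Ctsb in 7 of 8 and Ctsb exceeded Ctsz in 7 of 8. Ctsk was last in every library. Since FPKM is scaled by transcript length, these levels can be set beside each other.

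**Figure D1:**
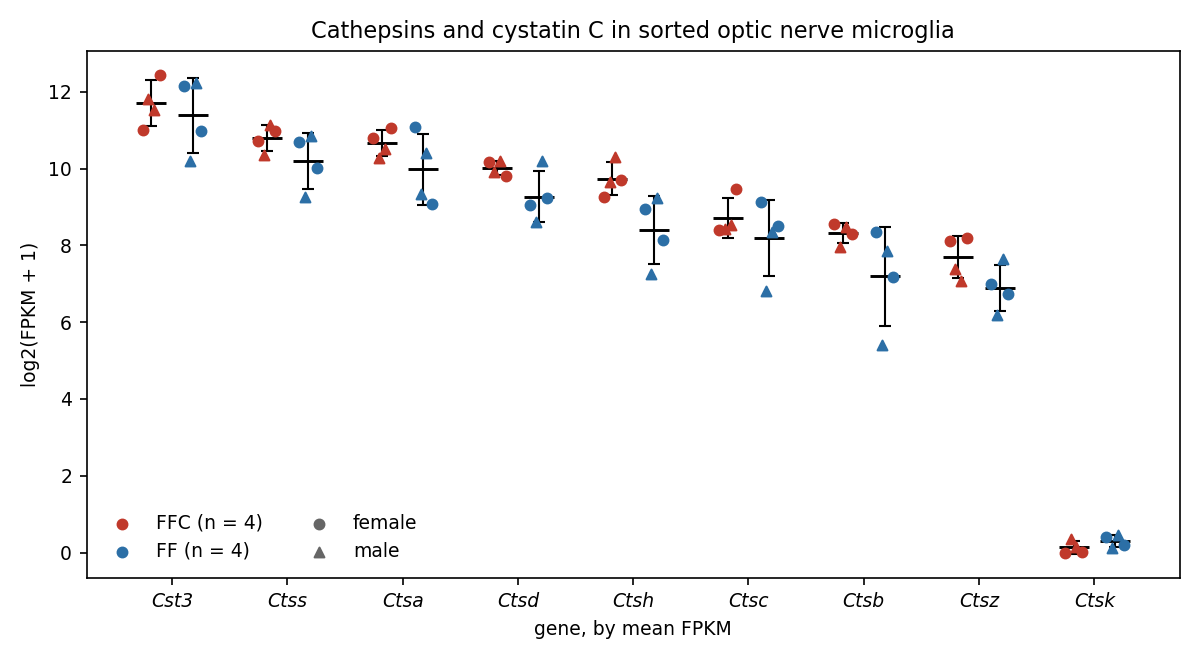
Level of the 9 genes as log2(FPKM + 1), ordered by mean FPKM, with 1 point per library (circles females, triangles males) in FFC and FF and with the group mean and SD as bars. Cst3 lies highest, Ctsk lies close to 0, and Ctsh alone has its 4 FFC libraries (612 FPKM or more) above its 4 FF libraries (600.1 FPKM or less).

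The comparison of FFC with FF addresses which microglial messages differ when the neighbouring astrocytes lack Nf1. The mean log2(FPKM + 1) was higher in FFC for 8 of 8 tested genes, with Cst3 turning to -0.061 under quantile normalization, against 56.7% of all tested genes with a higher mean. None of the 8 passed limma's test at an adjusted p under 0.05, and neither did any other gene (0% of 17753). Ctsh was the only one with an unadjusted p under 0.05 and a higher mean, against 4.52% of all genes, with 1.94% lower at that p, and the only one whose groups did not overlap, against 3.05% without overlap and higher and 1.29% without overlap and lower. The median difference of the 8 was 0.72 on the log2(FPKM + 1) scale and that of all tested genes was 0.19. Under upper-quartile scaling the median of all genes was 0.03 and that of the 8 was 0.48. In these bulk samples fewer cells of a type and less RNA per cell cannot be told apart.

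Among the cysteine cathepsins, Ctsh (ENSMUSG00000032359, chr9:89948990-89970927, mm9) differed most. It encodes cathepsin H, mainly an aminopeptidase that trims single residues from the amino end of peptides. Ctsh had 612, 809, 1268 and 833 FPKM in FFC libraries 1 to 4 and 494, 153, 600.1 and 282 FPKM in FF libraries 1 to 4. Every FFC library was above every FF library, by a margin of only 612 against 600.1 FPKM at the nearest points. The means were 881 ± 277 FPKM in FFC and 382 ± 202 FPKM in FF (SD, n = 4 each). The difference was 1.34 on the log2 scale (SE 0.51, 95% interval 0.24 to 2.43), with an unadjusted p of 0.0208 and an adjusted p of 0.712 in limma. The exact two-sided permutation p was 0.0286, the smallest that 70 arrangements of 4 and 4 libraries can give. Without FF 2 and FF 4 the Ctsh difference was 0.64. The unadjusted limma p of Ctsh was 0.0669 with the month of the titles as a covariate, 0.0753 without FFC 3, 0.0526 without FF 2 and 0.165 without FF 2 and FF 4.

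Ctsb (ENSMUSG00000021939, chr14:63741302-63764758, mm9) encodes cathepsin B, an endopeptidase that also removes dipeptides from the carboxyl end. It had 372, 246, 354 and 315 FPKM in FFC libraries 1 to 4 and 326, 41.3, 231 and 143 FPKM in FF libraries 1 to 4. FF 2 lay far below the rest, and FF 1 lay within the FFC range, so the groups overlapped. The difference was 1.12 (SE 0.62, 95% interval -0.22 to 2.46, adjusted p 0.759 by limma, exact permutation p 0.0857). It was 0.52 without FF 2 and 0.21 without both FF 2 and FF 4.

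Ctss (ENSMUSG00000038642, chr3:95330708-95360325, mm9) encodes cathepsin S, which cleaves the invariant chain of MHC class II and stays active at neutral pH. Ctss had 1683, 1311, 2265 and 2035 FPKM in FFC libraries 1 to 4 and 1651, 609, 1851 and 1037 FPKM in FF libraries 1 to 4. FF 2 and FF 4 were below all FFC libraries, while FF 1 and FF 3 lay among them. The difference was 0.60 (SE 0.43, 95% interval -0.34 to 1.54, adjusted p 0.759 by limma), and it was 0.03 without FF 2 and FF 4.

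Ctsz (ENSMUSG00000016256, chr2:174252994-174264540, mm9) encodes cathepsin Z, a carboxypeptidase that removes single residues. It had 278, 165, 135 and 292 FPKM in FFC libraries 1 to 4 and 126, 71.8, 199.6 and 106 FPKM in FF libraries 1 to 4. The FFC females 1 and 4 were the highest of the 8 libraries, and the male FF 3 was above both FFC males. The difference was 0.80 (SE 0.53, 95% interval -0.34 to 1.95, adjusted p 0.759 by limma), and it was 0.38 without FF 2 and FF 4.

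Ctsc (ENSMUSG00000030560, chr7:95426595-95459398, mm9) encodes cathepsin C, the dipeptidyl peptidase that activates the serine proteases of immune cell granules. It had 337, 344, 370.4 and 712 FPKM in FFC libraries 1 to 4 and 562, 111, 323 and 364 FPKM in FF libraries 1 to 4. A single FFC library, FFC 4, stood above all the others, and the remaining FFC libraries lay between FF 2 and FF 1. The difference was 0.51 (SE 0.56, 95% interval -0.68 to 1.71, adjusted p 0.793 by limma), and it was -0.027 without FF 2 and FF 4. Summed markers of neutrophils, whose granule proteases cathepsin C activates, were 2.83 to 824 FPKM in FFC and 193 to 2456 FPKM in FF, with the mean log2(FPKM + 1) of 4 of 5 tested markers lower in FFC. Elane was at 0 in 6 of 8 libraries, while S100a8 had 0 to 975 FPKM and S100a9 had 2.25 to 1126 FPKM over the 8 libraries. The part of these cells in the Ctsc values was not tested.

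Ctsk (ENSMUSG00000028111, chr3:95303208-95313284, mm9) encodes cathepsin K, the collagen-degrading enzyme of osteoclasts. It had 0.287, 0.102 and 0.0153 FPKM in FFC libraries 2 to 4 and was listed at 0 in FFC 1. In FF libraries 1 to 4 it had 0.314, 0.0917, 0.379 and 0.142 FPKM. All of these values are near 0 and the groups overlapped, with a difference of -0.16 that was not tested by limma (exact two-sided permutation p 0.2). Ctsk ends 17423 bases before Ctss begins, with 0 other genes of the table between them. The mean level of Ctss over the 8 libraries was 9345 times that of Ctsk. Summed fibroblast markers were 5.37 to 11.9 FPKM in FFC and 2.87 to 94.3 FPKM in FF, and their part in the Ctsk values was not tested.

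Of the enzymes outside the papain type, Ctsd (ENSMUSG00000007891, chr7:149557053-149573943, mm9) encodes the aspartic protease cathepsin D, a main endopeptidase of the lysosome. Ctsd had 1148, 967, 1168 and 888 FPKM in FFC libraries 1 to 4 and 529.8, 386, 1168 and 600.3 FPKM in FF libraries 1 to 4. FF 1, FF 2 and FF 4 were below all FFC libraries and FF 3 was level with the highest of them. The difference was 0.75 (SE 0.44, 95% interval -0.19 to 1.69, adjusted p 0.759 by limma), and it was 0.40 without FF 2 and FF 4.

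Ctsa (ENSMUSG00000017760, chr2:164658373-164666532, mm9) encodes cathepsin A, which also protects the lysosomal enzymes neuraminidase 1 and beta-galactosidase. It had 1778, 1231, 1469 and 2114 FPKM in FFC libraries 1 to 4 and 2166, 652, 1347 and 541 FPKM in FF libraries 1 to 4. The highest and the lowest library were both FF. The difference was 0.68 (SE 0.48, 95% interval -0.35 to 1.71, adjusted p 0.759 by limma), and it was -0.081 without FF 2 and FF 4.

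The inhibitor, Cst3 (ENSMUSG00000027447, chr2:148697458-148701428, mm9), had 2067, 3603, 2932 and 5580.1 FPKM in FFC libraries 1 to 4 and 4526, 1175, 4799 and 2004 FPKM in FF libraries 1 to 4. FFC 4 was highest and FF 2 lowest, and FF 1 and FF 3 exceeded the other FFC libraries. Cst3 had the smallest difference of the 8 tested genes, 0.31 (SE 0.49, 95% interval -0.75 to 1.38, adjusted p 0.867 by limma). It changed sign with the setting, to -0.082 without FF 2, -0.49 without FF 2 and FF 4, and -0.061 under quantile normalization. The level of Cst3 over the summed level of the 8 cathepsins was 0.333, 0.71, 0.417 and 0.776 in FFC libraries 1 to 4 and 0.773, 0.581, 0.839 and 0.652 in FF libraries 1 to 4. The mean ratio was 0.559 ± 0.217 in FFC and 0.711 ± 0.117 in FF (SD, n = 4 each), with overlapping groups.

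**Figure D2:**
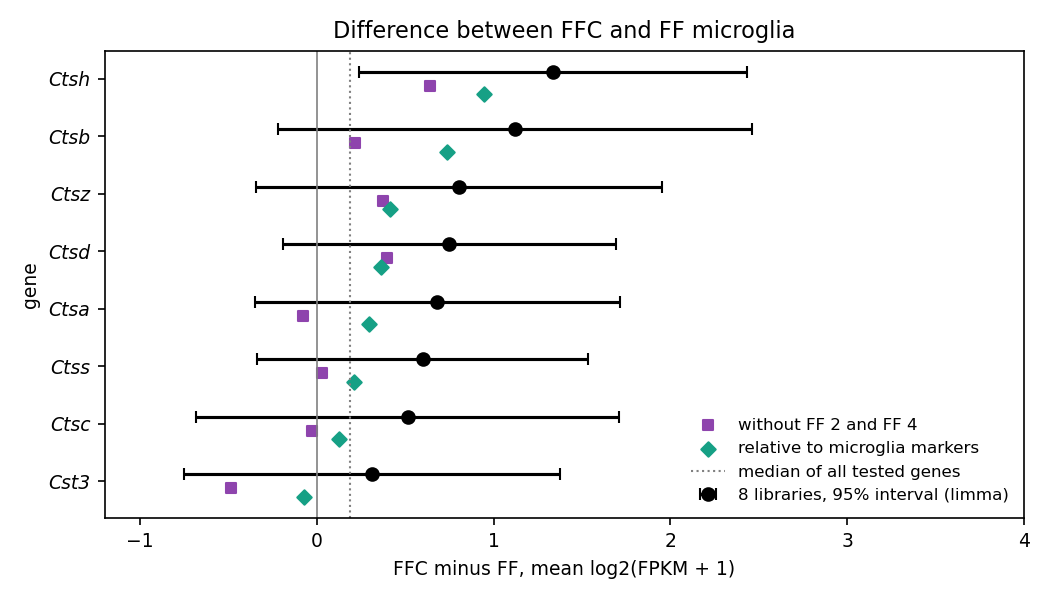
Difference between FFC and FF in mean log2(FPKM + 1) for the 8 tested genes, with 95% intervals from limma (black), without FF 2 and FF 4, and relative to the microglia markers; the dotted line is the median of all tested genes, 0.19. Only the interval of Ctsh (0.24 to 2.43) lies wholly above 0, and without FF 2 and FF 4 Ctsa, Ctsc and Cst3 lie below 0.

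Much of the spread among the 8 tested genes was common to them. FF 2 was the lowest of the 8 libraries for 7 of them, and FF 4 for Ctsa. The mean log2(FPKM + 1) of the 8 was 9.63, 9.47, 9.72 and 10.0 in FFC libraries 1 to 4 and 9.55, 7.88, 9.59 and 8.73 in FF libraries 1 to 4. FF 1 and FF 3 were thus at the level of the FFC libraries, and FF 2 and FF 4 were below it. The mean of the 12 microglia markers was 7.26, 7.79, 7.85 and 8.47 in FFC libraries 1 to 4 and 8.11, 6.49, 8.02 and 7.21 in FF libraries 1 to 4, and was again lowest in FF 2. With the values as deposited, 10 of these markers were higher in FFC and 2 lower (P2ry12 and Fcrls), 0 were called, and their median difference was 0.48. Taken relative to the mean of the microglia markers, the median difference of the 8 was 0.33 where that of all tested genes was -0.20. Ctsh was then 0.95 and its groups did not overlap, where 1.4% of all tested genes were higher without overlap. With FF 2 and FF 4 both left out, 5 of the 8 were higher in FFC. The median of the 8 was then 0.12, where that of all genes tested in this setting was 0.08.

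**Figure D3:**
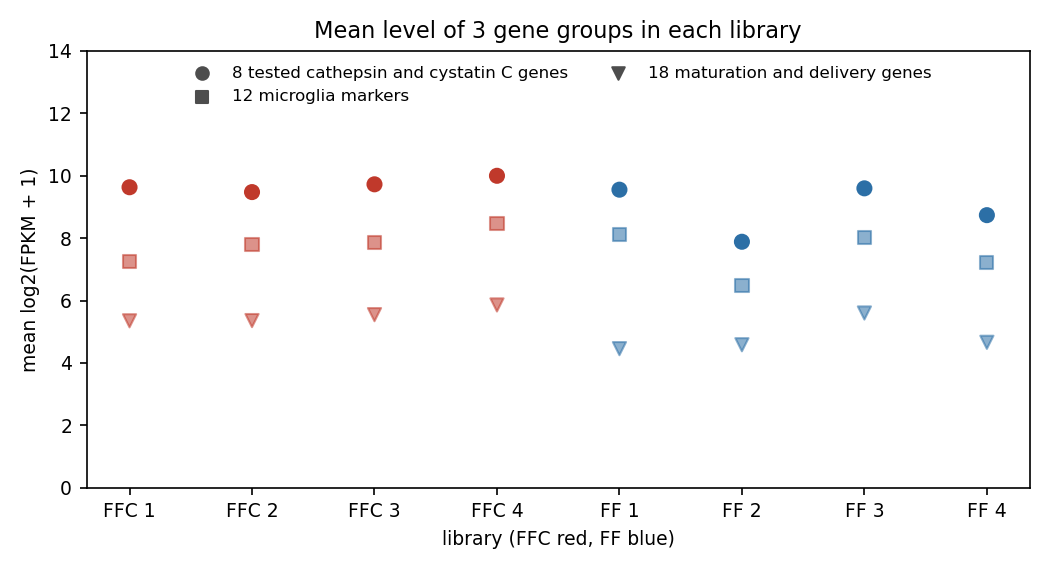
Mean log2(FPKM + 1) in each library of the 8 tested cathepsin and cystatin C genes, the 12 microglia markers and 18 genes of cathepsin maturation and lysosomal delivery, FFC in red and FF in blue. The 8 genes lie between 9.47 and 10.0 in FFC, at 9.55 and 9.59 in FF 1 and FF 3, and at 7.88 and 8.73 in FF 2 and FF 4.

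The marker sums of other cells overlapped between the genotypes in every list. Summed astrocyte markers were 90.8 to 188 FPKM in FFC and 51.8 to 196 FPKM in FF, and Slc1a3 made up most of each sum. Those of oligodendrocytes were 10.3 to 50.5 FPKM in FFC and 11.7 to 41.8 FPKM in FF. Border-associated macrophages also use cathepsins, and their summed markers were 97.5 to 956 FPKM in FFC and 363 to 1041 FPKM in FF, with 0 of 5 higher in FFC. T and NK cell markers summed to 5.19 to 19.8 FPKM in FFC and 6.18 to 147 FPKM in FF, and those of dendritic cells and monocytes to 14.7 to 59.9 FPKM in FFC and 23.0 to 69.9 FPKM in FF. The part of these cells in the cathepsin values was not tested.

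Females and males were compared next, with genotype as a covariate. The difference between FFC and FF was above 0 for 8 of 8 in females and for 8 of 8 in males. Each of these counts sets 2 FFC against 2 FF libraries. The low library FF 4 is among the females and the low library FF 2 among the males. The share of all genes within each sex was not computed. The mean log2(FPKM + 1) was higher in females than in males for 6 of 8, against 48.5% of all tested genes, with the signs of several depending on a single library. None of the 8 was called (0% of all genes were), and 0 had an unadjusted p under 0.05 (3.99% of all genes). Ctsc showed the greatest contrast, 8.88 in females and 8.03 in males on the log2 scale, a difference of 0.86 (SE 0.53, unadjusted p 0.128, adjusted p 0.953 by limma). The interaction of genotype and sex was called for 0 of the 8 (0% of all genes), with an adjusted p of 0.9995 for each, and 0 of the 8 had an unadjusted p under 0.05 (3.19% of all genes).

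The titles carry a month that the labels do not explain, November for 1 FFC and 3 FF libraries and December for 3 FFC and 1 FF libraries. Within November 7 of 8 genes were higher in FFC, with a median difference of 0.65 and -0.51 for Cst3. Within December 8 of 8 were higher, with a median of 0.88. Each of these values sets 1 library of a genotype against 3 of the other. The low library FF 4 is the only FF library of December, and the low library FF 2 is among the FF libraries of November. The mean log2(FPKM + 1) of the 8 genes was 8.73 in FF 4 and 7.88 in FF 2. The share of all genes within each month was not computed, so these counts do not show a difference particular to the 8 genes.

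By the root mean square difference between centred log2 profiles over the 8 libraries, the genes most like the average of the cathepsins and cystatin C were Cx3cr1 (0.132), the fractalkine receptor of microglia, and C1qb (0.149), a chain of complement C1q. They were followed by the lysosomal membrane protein gene Lamp1 (0.164), the haematopoietic gene Nckap1l (0.201) and the microglial marker Tmem119 (0.216). The genes compared had 5 FPKM or more on average, and symbols of predicted genes and small RNAs were left out. Their median was 1.19 over 8585 genes. Within the 8, Ctss lay closest to the average (0.175). Ctsd and Ctss were the pair most alike (0.368) and Ctsc and Ctsd the pair least alike (0.711). These distances are a description of 8 libraries that share the study, and no test was made of them.

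The remaining cathepsin genes and the genes that inhibit, process and carry cathepsins were read from 3 lists, and 0 genes were called in any of them. Of 16 other cathepsin-type genes 5 were tested. Of these 4 were higher in FFC and Tinagl1, a relative without protease activity, was lower, with a median of 0.81. Ctse, the aspartic cathepsin E, averaged 97.8 ± 42.7 FPKM in FFC and 45.01 ± 29.5 FPKM in FF (SD, n = 4 each), a difference of 1.33 (SE 0.69, adjusted p 0.759 by limma). Ctsl, which encodes the endopeptidase cathepsin L, had 131, 157, 245 and 156 FPKM in FFC libraries 1 to 4 and 197, 22.7, 177 and 102 FPKM in FF libraries 1 to 4. The Ctsl groups overlapped, and without FF 2 and FF 4 the mean log2(FPKM + 1) was higher in FFC for 2 of the 5 genes. The median of the 5 was then -0.14, and it was 0.44 without FF 2 alone.

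Of 17 other cystatins and stefins 15 were matched by symbol and 5 tested. The mean log2(FPKM + 1) was higher in FFC for 4 of them, or for 3 under each of 3 scalings, and lower for Stfa3, a member of a family of near-identical copies. Cst7, which encodes the intracellular inhibitor cystatin F, had 87.9, 12.9, 42.3 and 8.74 FPKM in FFC libraries 1 to 4 and 0.23, 0.169, 2.67 and 2.29 FPKM in FF libraries 1 to 4. All FFC libraries were above all FF libraries, and the FFC values themselves differed widely. Cst7 was the only 1 of the 5 without overlap, where 3.05% of all tested genes were higher without overlap. The difference was 3.72 (SE 0.90, unadjusted p 0.00109, adjusted p 0.518 by limma). Cstb, which encodes cystatin B of the cytosol, averaged 149 ± 130 FPKM in FFC and 113 ± 40.5 FPKM in FF (SD, n = 4 each), a difference of 0.05 that was -0.10 under quantile normalization. Cstl1 and BC100530 had log2 differences of 0.67 and 0.58 with adjusted p-values of 0.832 and 0.899 by limma, although the FPKM mean of BC100530 was lower in FFC (7.62) than in FF (11.2). The median of the 5 was 0.58, and it was 0.012 without FF 1, 0.060 with a pseudocount of 5 and 1.61 without FF 2 and FF 4.

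All 18 genes of maturation and lysosomal delivery were tested. The mean log2(FPKM + 1) was higher in FFC for 16 of them, or for 14 under each of 3 scalings, with a median of 0.61. Of these 16, Glb1 (42.8 FPKM in FFC and 45.6 FPKM in FF) and Tfeb (13.2 FPKM in FFC and 13.4 FPKM in FF) had lower FPKM means in FFC, and were named after their values were seen. Lgmn encodes legumain, the asparaginyl endopeptidase that processes several cathepsins, and averaged 548 ± 210 FPKM in FFC and 413 ± 154 FPKM in FF (SD, n = 4 each), a difference of 0.43 (SE 0.48, adjusted p 0.799 by limma). Gnptg encodes a subunit of the phosphotransferase that begins the mannose 6-phosphate tag. It had 13.9, 16.1, 10.4 and 32.9 FPKM in FFC libraries 1 to 4 and 1.20, 2.29, 11.4 and 0.247 FPKM in FF libraries 1 to 4. FF 3 lay within the FFC range and the other FF libraries lay far below it. The difference was 2.45 (SE 0.86, unadjusted p 0.0136, adjusted p 0.712 by limma). Gnptg was named because its p was among the 3 smallest of the list. It was the only 1 of the 18 with an unadjusted limma p under 0.05, where 4.52% of all tested genes were higher at that p.

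M6pr, the cation-dependent mannose 6-phosphate receptor, was the only gene of that list without overlap (1 of 18). Of all tested genes 3.05% were higher without overlap. Igf2r, the cation-independent receptor, and Neu1 were the only genes of the list with a lower mean log2(FPKM + 1). These 3 were named after their values were seen. M6pr had 33.6, 30.3, 36.3 and 33.8 FPKM in FFC libraries 1 to 4 and 14.8, 4.32, 27.9 and 17.9 FPKM in FF libraries 1 to 4. Its FFC values lay close together and above every FF value, with a difference of 1.24 (SE 0.69, adjusted p 0.759 by limma). Igf2r averaged 0.761 ± 0.799 FPKM in FFC and 2.40 ± 0.573 FPKM in FF (SD, n = 4 each), a difference of -1.04 (adjusted p 0.759 by limma). Tfe3 and Mitf, relatives of the lysosomal gene regulator TFEB, had differences of 1.39 and 1.71, each with an adjusted p of 0.759 by limma. Without FF 2 and FF 4, the mean log2(FPKM + 1) was higher in FFC for 14 of the 18 genes and their median was 0.20.

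**Figure D4:**
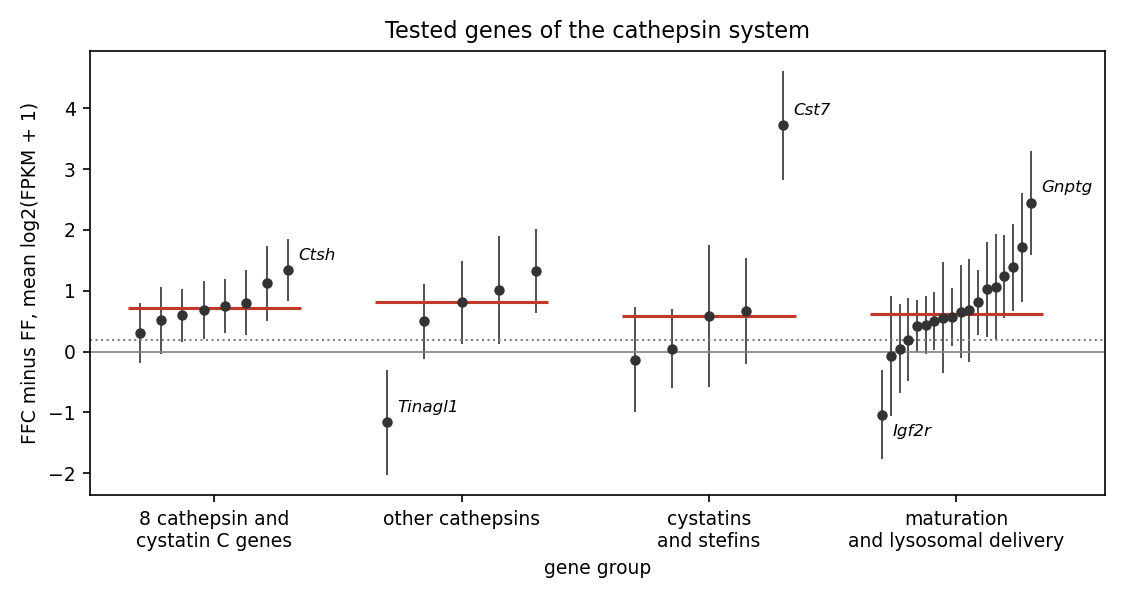
Difference between FFC and FF in mean log2(FPKM + 1) with its SE for the 8 tested genes, 5 other cathepsin-type genes, 5 other cystatins and stefins and 18 genes of maturation and delivery; red bars are group medians and the dotted line is the median of all tested genes, 0.19. With all libraries the medians are 0.72, 0.81, 0.58 and 0.61, and Cst7 (3.72) and Gnptg (2.45) lie highest in their groups.

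In the deposited table the spans of 6 of the 9 genes overlap that of another gene, and the strand setting of the counting was not stated. Ctsd shares 2606 bases with 6330512M04Rik, which had at most 43.0 FPKM in any library, and Ctsa shares 1515 bases with Pltp, which had at most 117 FPKM. Ctsb shares 769 bases with Fdft1 (at most 24.2 FPKM) and Ctsz shares 10 bases with Th1l (at most 150.4 FPKM). Ctsc and Ctss overlap Gm17710 and Hmgb1-ps5. The values of these pairs are uncertain to that extent, while Ctsh, Ctsk and Cst3 overlap no other gene of the table.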

How the data were processed

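RNA of flow sorted microglia was sequenced in 8 libraries, 4 FFC and 4 FF. The authors deposited 1 table of FPKM values for 37447 genes with no read counts. The submitters' processing notes list Cufflinks 2.0.2, TopHat2 2.0.4, CASAVA 1.8.2 and Bowtie2 2.0.0 with the build mm9. What each did, the annotation and the strand setting are not given. Per the labels' protocols, RNA was amplified as cDNA by the Ovation method, which can widen the spread between libraries. Depth is unknown: 482 values lie above 0 and below 1e-05 FPKM, so whole reads could not be recovered, and no counting interval is given.

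The 447 genes with a missing value (331 in all 8 libraries) were left out. Starts in the table count from 0 (21680 genes then have their GENCODE M21 length, against 420 otherwise) and are printed counted from 1. The deposited FPKM values were used as log2(FPKM + 1), a scale that understates folds of low genes, for 17753 genes whose mean reached 1 FPKM. Genotype, sex (with genotype as covariate) and their interaction were tested in limma 3.58.1 under R 4.3.3 (empirical Bayes with trend, two-sided, Benjamini-Hochberg over all tested genes, threshold 0.05). Single genes were compared by exact two-sided permutation over 70 arrangements. Other steps used scipy 1.17.1, pandas 2.3.3, matplotlib 3.10.9 and numpy 2.4.6 under Python 3.11.15. The limma step was checked on simulated data. No pair of libraries had identical values.

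The genes and lists were chosen with earlier results of these data known. Named were the 9 genes, Nf1, Lgmn, Ctsl, Cstb, Cst7, the 3 tested genes with the smallest unadjusted p of each related list, marker genes, and the 5 genes of 5 FPKM or more on average with a profile most like the mean profile. Symbols of predicted genes and small RNAs were left out before the genes of like profile were ranked. The symbols Csta1 and BC117090 were not matched, and F13a1 was left out of its marker list for missing values. Of 2 Glb1 rows the one with the higher mean was used. Alternatives were pseudocounts of 0.1 and 5, a minimum mean of 5 FPKM or none, scaling to equal sums, to upper quartiles or by quantiles, robust variances, a term for sex, for month or for replicate number, leaving out each library and leaving out FF 2 and FF 4 together. Values relative to the microglia markers, and all alternatives for Ctsk, the interaction and the related lists, were added after seeing the data.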

Additional observations from a re-analysis of the deposited data

Results flagged for a closer look

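Of 18 groups of 4 libraries (9 genes in 2 genotypes), 1 had a library that stood apart from the others. Ctsc was at 712 FPKM in FFC 4, and its gap to the next FFC library took up 0.875 of the range of the group on the log2(FPKM + 1) scale, above Dixon's 95% critical value for 4 samples. Chance alone gives such a library in about 1 of 20 groups.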

How the results depend on the processing

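The number of the 8 tested genes called between FFC and FF was 0 under all alternatives. Leaving out FF 2 and FF 4 together gave 4 called genes over the whole table, where 0 were called with all libraries, and left 5 of the 8 genes higher in FFC with a median of 0.12. It also gave -0.081 for Ctsa, -0.027 for Ctsc and -0.49 for Cst3, and 2 of 5 other cathepsins higher in FFC. Quantile normalization gave 2 genes without overlap and with an exact permutation p at its smallest value of 0.0286, Ctsh and Ctsb, where 2.71% of all genes were higher without overlap, and -0.061 for Cst3. Cst3 was -0.075 relative to the microglia markers. Ctsk was -0.84 with a pseudocount of 0.1. The causes were not tested.

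Leaving out each library in turn gave 0 to 2 called genes over the whole table and 1 to 3 of the 8 genes without overlap. There were 3 without FF 3 and 2 without FF 1, where 6.58% and 6.8% of all genes were higher without overlap. The number of the 8 with an unadjusted limma p under 0.05 was 2 without FF 3 and 3 without FF 1. At that p 5.17% and 5.99% of all genes were higher in these settings. The number was 0 with month as a term, without FFC 3, without FF 2 and without FF 2 and FF 4. There 5.34%, 3.3%, 3.57% and 2.33% of all genes were higher at that p. With each library left out in turn, the count of the 8 genes higher in FFC was 7 to 8, and the median difference 0.50 to 0.94. Cst3 lay between -0.082, without FF 2, and 0.59. The difference between females and males gave 0 to 4 called genes over the whole table, 4 without FF 2. The sign of that difference was reversed for Ctsh without FFC 1 (0.065), FFC 3 (0.11) or FF 3 (0.21), in a range of -0.58 to 0.21, and for Cst3 without FFC 4 (-0.056), FF 1 (-0.060) or FF 2 (-0.23), in a range of -0.23 to 0.58. It was also reversed for Ctsa without FF 1 (-0.00072, up to 0.80), Ctss without FF 2 (-0.14, up to 0.50) and Ctsd without FF 3 (0.17, down to -0.46).

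Same-numbered FFC and FF libraries were of the same sex, and some also shared the month of the titles. Their deviations from the genotype means had correlations of -0.0406, 0.0344, -0.00926 and -0.0516. Only FFC 2 correlated best with the library of its own number. With 4 libraries of each genotype, these correlations cannot decide whether the libraries were paired. With the replicate number as a block 0 genes were called, the median of the 8 genes stayed at 0.72 and Ctsh was 1.34 with an adjusted p of 0.789 by limma. The unknown depth leaves the counting error of Ctsk and other low genes unmeasured.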
